A study of Mus musculus with 4 samples.

Results

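The S-phase DNA replication genes are 39 genes whose products copy the genome, out of 16600 genes in the deposited single-cell (sc) RNA-Seq table. They were chosen by name, as genes of the replication machinery and of the G1/S transition, and all 39 are rows of the table. They fall into 6 role groups, which are the licensing and helicase factors (12 genes), fork synthesis (9), nucleotide supply (4), chromatin and histone handling (5), checkpoint and repair (6) and G1/S regulators (3). For each cell a score was taken as the mean over the 39 genes of the deposited value, the natural log of 1 plus counts per 10000 UMIs.

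The cells came from the cortex of C57BL/6J mouse fetuses at E18.5 and were sorted as CD24+ CD45-, a gate that leaves out CD45+ immune cells. There were 2 Setd5+/+ libraries (WT3 and WT6) and 2 Setd5+/- libraries (Het5 and Het9), the latter heterozygous for the Setd5 GFP allele in all cells, and the labels name no treatment of either group. Each library was made from a fetus of its own. The libraries held 1445 to 1954 cells, 6562 in all, with a median of 5398 to 5997 UMIs per cell. Mean Setd5 was 1.18 and 1.07 counts per 10000 in the Setd5+/+ libraries and 0.540 and 0.586 in the Setd5+/- libraries, in the direction of the labels. Cd24a averaged 12.2 to 14.2 and Ptprc, which encodes CD45, 0.0733 to 0.161 per library, in the direction of the sort. Xist, transcribed from the inactive X chromosome, lay at 20.6 and 21.5 in the Setd5+/+ libraries and at 0.152 and 0.310 in the Setd5+/- libraries, so genotype and sex cannot be told apart. Barcodes found in all 4 libraries marked 224 cells (56 in each), 7 of them among the cycling pallial cells and 0 among the cycling Dlx-positive cells.

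Before S phase, the MCM2-7 helicase is loaded on origins by ORC, CDC6 and CDT1, and geminin later blocks reloading. Activation of the helicase by CDC45, the GINS complex and MCM10 opens the fork, where primase and DNA polymerase alpha start each strand and PCNA, loaded by RFC, clamps the copying polymerases. E2F transcription factors drive many of these genes at the G1/S boundary. In the late embryonic forebrain, dividing cells include radial glia and intermediate progenitors of the pallium, which give excitatory neurons, and Dlx-positive progenitors of the ganglionic eminences, which give GABAergic neurons.

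Promoters were examined first, since E2F-type sequence is the feature for which these genes are known. RefSeq promoters on GRCm38.p6 (250 bases before to 50 bases after the start) were matched by symbol for 30 of the 39 genes. The motif was taken as TTGGCGC on either strand. Its variant TTCCCGC was also accepted, as was the variant TTCGCGC and likewise the variant TTGCCGC, and overlapping matches were counted separately. Such a match occurred in 19 of these 30 genes (63.3%), against 10.9% of all 27025 genes with a promoter of this length. CCAAT occurred in 66.7% of the 30 genes against 41.1% of all, and TTTGAA, the core of the cell cycle genes homology region known from late cell cycle genes, in 13.3% against 20.2%. These are matches of letters, not measured binding. Below are the promoters of Rrm2 and 2810417H13Rik, the 2 genes with the widest differences between cell classes, of Mcm6, which held 5 E2F-type matches, and of Ung, called lower in cycling Dlx-positive cells, which held 0. Of the genes with a match 12 of 19, and of those without 6 of 11, were called higher in cycling Dlx-positive cells. Capitals mark the E2F-type matches, and the strand is that of the gene.
Rrm2 (chr12:24708004-24708303, plus strand): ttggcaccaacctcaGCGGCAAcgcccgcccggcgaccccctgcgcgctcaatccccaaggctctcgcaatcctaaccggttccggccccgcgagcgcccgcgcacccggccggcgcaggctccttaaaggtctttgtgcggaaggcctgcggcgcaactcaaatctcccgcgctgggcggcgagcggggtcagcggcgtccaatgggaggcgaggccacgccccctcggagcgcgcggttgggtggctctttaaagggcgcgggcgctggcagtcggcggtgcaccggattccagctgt
2810417H13Rik (chr9:65890073-65890372, plus strand): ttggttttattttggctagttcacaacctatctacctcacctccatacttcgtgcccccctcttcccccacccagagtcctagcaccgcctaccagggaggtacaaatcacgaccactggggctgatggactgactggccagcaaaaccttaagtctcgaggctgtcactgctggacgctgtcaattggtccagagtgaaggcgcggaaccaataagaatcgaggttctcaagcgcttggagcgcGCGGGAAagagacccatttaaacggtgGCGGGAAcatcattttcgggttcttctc
Mcm6 (chr1:128359656-128359955, minus strand): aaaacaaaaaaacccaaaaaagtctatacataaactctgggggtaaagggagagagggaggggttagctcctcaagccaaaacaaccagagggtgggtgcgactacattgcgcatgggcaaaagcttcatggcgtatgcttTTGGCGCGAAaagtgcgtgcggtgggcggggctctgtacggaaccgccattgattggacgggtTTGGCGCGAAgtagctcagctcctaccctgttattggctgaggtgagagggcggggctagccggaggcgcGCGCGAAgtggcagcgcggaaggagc
Ung (chr5:114130185-114130484, plus strand): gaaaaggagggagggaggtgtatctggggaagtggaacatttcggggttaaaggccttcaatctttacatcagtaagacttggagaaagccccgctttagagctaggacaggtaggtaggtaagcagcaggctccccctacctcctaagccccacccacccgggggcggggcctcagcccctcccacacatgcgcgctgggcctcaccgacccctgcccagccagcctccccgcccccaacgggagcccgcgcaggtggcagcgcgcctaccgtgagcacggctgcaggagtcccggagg

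Cells were placed in classes by marker genes, none of which is one of the 39. Cycling cells had at least 3 UMIs over at least 2 of 24 G2/M genes such as Mki67, Top2a and Cdk1. Dlx-positive cells had at least 2 UMIs of Dlx genes, and pallial cells had 0 UMIs of subpallial genes and at least 1 UMI of pallial genes such as Pax6 and Eomes. This gave 415 cycling pallial cells (74 to 143 per library) and 863 cycling Dlx-positive cells (154 to 250 per library), with 319 cycling cells in neither lineage. A further gate without any cell cycle gene gave 583 pallial and 1089 Dlx-positive progenitors, of which 251 and 708 were cycling. The lineages were set against further marker lists. The 8 GABAergic neuron genes summed to 0.0179 to 0.134 counts per 10000 in cycling pallial and 5.81 to 6.75 in cycling Dlx-positive cells. This was in the direction of the lineage, though Gad1 and Gad2 also served to leave cells out of the pallial gate. The 7 radial glia genes, a list for a progenitor type and not for a lineage, summed to 33.1 to 59.4 and 4.24 to 5.86. The cycling classes thus differed in radial glia transcripts as well as in lineage, and the part of this was not tested. Sums of 4 endothelial genes stayed at or under 0.118 and of 7 immune genes at or under 0.362 in both. Cd24a, the sort marker, averaged 5.55 counts per 10000 in cycling pallial cells and 10.5 in cycling Dlx-positive cells, and a list of 5 red cell genes summed to 36.4 to 94.4 and 4.56 to 57.6. The 7 excitatory neuron genes summed to 5.82 to 8.72 in cycling pallial and 3.15 to 3.50 in cycling Dlx-positive cells, and Neurod6 alone averaged 3.33 and 0.146, against 14.3 in excitatory neurons. The progenitor gate allows at most 1 UMI of Neurod2 and Neurod6. There the same list summed to 2.20 to 2.42 in pallial and 3.08 to 4.39 in Dlx-positive cells. Of that list only Bcl11b was higher in Dlx-positive cells, at 3.25 against 0.279 in progenitors and 2.98 against 0.416 in cycling cells. Bcl11b averaged 10.9 in Dlx-positive neurons and 3.85 in excitatory neurons, so it does not mark excitatory cells here. The part of the sort, of red cell RNA and of neuronal RNA in the differences between cycling classes was not tested. Leaving out the 5 pallial and 2 Dlx-positive cycling cells with 100 or more globin counts per 10000, a setting added after seeing the data, left the number of genes called between these classes at 24, and leaving out the shared barcodes did too.

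The S-phase score was higher in Dlx-positive than in pallial cells. In cycling pallial cells the score was 0.493 in WT3, 0.518 in WT6, 0.508 in Het5 and 0.467 in Het9. In cycling Dlx-positive cells it was 0.609, 0.683, 0.691 and 0.660 in the same order. The libraries of the 2 classes did not overlap, and the difference within libraries was 0.164 ± 0.0343 (SD, n = 4), positive in 4 of 4. With every cell thinned to 3000 UMIs, the difference was 0.158 ± 0.0266. Neurons were gated to have 0 UMIs of the 24 G2/M genes and of the 13 progenitor genes, so that their low score is in part set by the gate. Excitatory neurons scored 0.111 ± 0.00496 and Dlx-positive neurons, of which Het5 held 19, 0.128 ± 0.0331. With the gate that uses no cell cycle gene, the score was 0.336 ± 0.0393 in pallial and 0.558 ± 0.0408 in Dlx-positive progenitors, a difference within libraries of 0.223 ± 0.0237. The gate genes moved with the same difference, since the 24 G2/M genes summed to 29.4 to 38.9 counts per 10000 in cycling pallial cells and to 78.6 to 86.9 in cycling Dlx-positive cells, and the part of this in the score difference was not tested. Median depth was 7215 UMIs in cycling pallial and 6687 in cycling Dlx-positive cells.

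**Figure D1:**
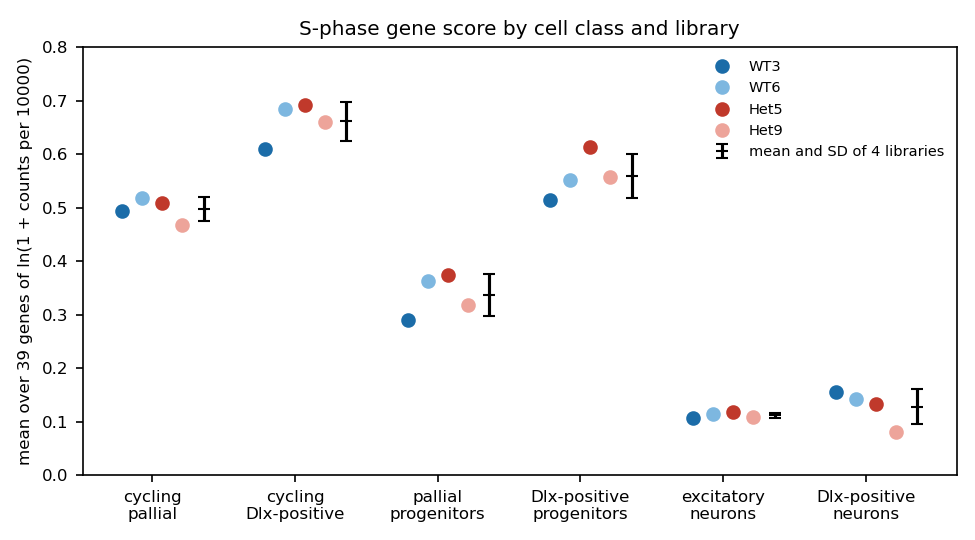
Mean S-phase score (mean over 39 genes of the natural log of 1 plus counts per 10000 UMIs) in each library (points) and the mean with SD of the 4 libraries (black bars) for 6 cell classes. Cycling Dlx-positive cells lie at 0.609 to 0.691, above cycling pallial cells at 0.467 to 0.518, and excitatory neurons lie near 0.111.

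The number of S-phase genes seen per cell gave the same order. At 3000 UMIs per cell, 5 or more of the 39 genes had a UMI in 61.3% to 69.7% of cycling pallial cells and in 80.9% to 87.0% of cycling Dlx-positive cells of a library. The share was 4.14% to 8.13% in excitatory neurons, whose gate leaves out cells with any G2/M or progenitor UMI and so may also leave out cells with free RNA of dividing cells. In Het9, the 95% exact binomial interval was 49.4% to 72.4% for cycling pallial and 73.8% to 86.8% for cycling Dlx-positive cells, and these intervals cover counting error only. Rrm2 had a UMI in 57.3% of cycling pallial, 83.3% of cycling Dlx-positive and 6.41% of excitatory neuron cells, at median depths of 7215, 6687 and 5206 UMIs. At 3000 UMIs the shares were 41.1%, 72.4% and 3.88%.

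Gene by gene, 24 of the 39 genes differed between cycling Dlx-positive and cycling pallial cells (limma on log2 of the mean counts per 10000 plus 0.1, libraries as blocks, adjusted p under 0.05 over 7917 genes). Of these, 23 were higher in Dlx-positive cells and 1, Ung, was lower. Over all genes 35.8% were called, 14.1% higher and 21.7% lower. The median difference was 0.40 on the log2 scale for the 39 genes and -0.06 for all genes. In the progenitor gate, 36 of the 39 genes were higher and 0 lower, against 47.5% called, 19% higher and 28.5% lower, among 8091 genes, and the medians were 0.74 and -0.06. Summed over the 39 genes, levels in cycling cells were 1.40 to 1.64 times as high in Dlx-positive as in pallial cells of the same library. A mean over cells cannot tell more transcript per cell from more cells in S phase.

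**Figure D2:**
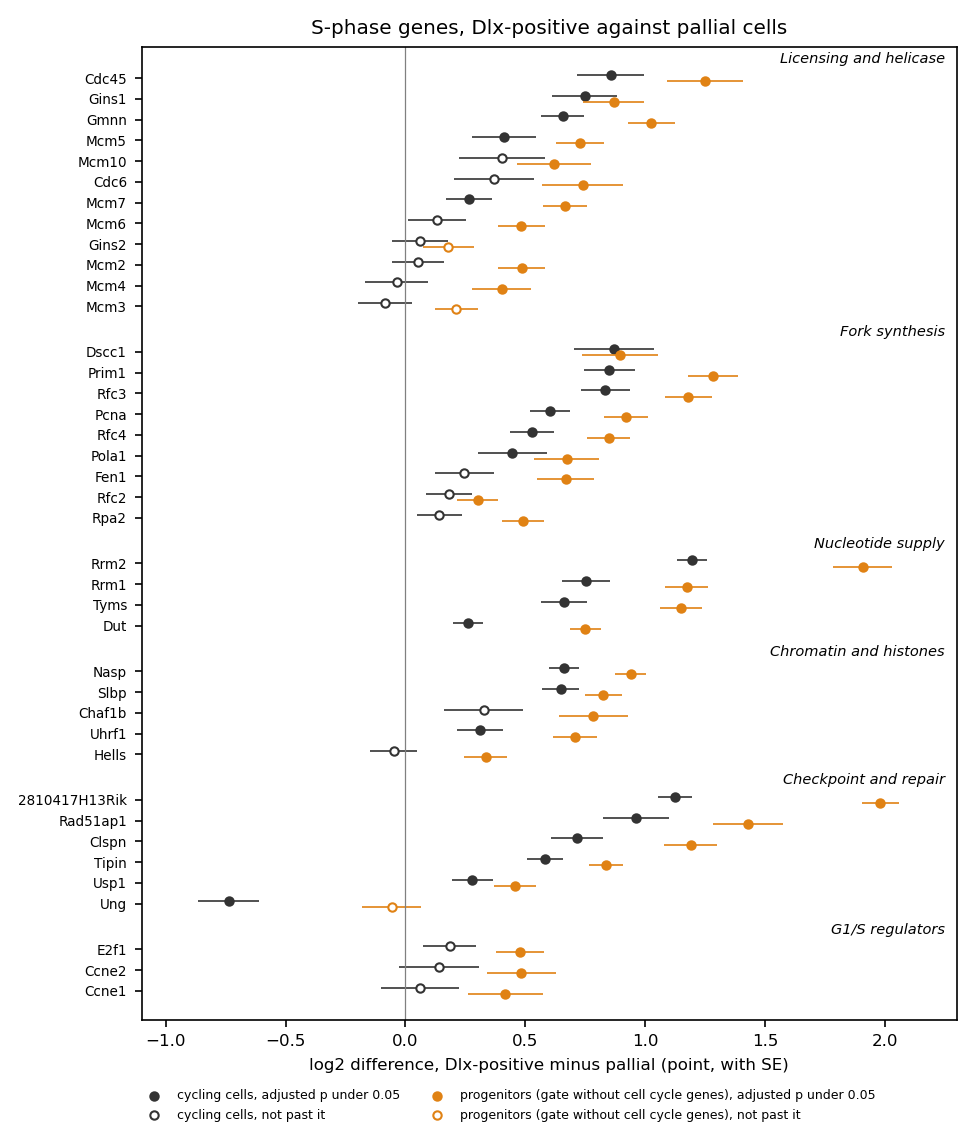
Difference in log2(mean counts per 10000 + 0.1) between Dlx-positive and pallial cells for each S-phase gene, with its SE, by role group, in cycling cells (dark) and in progenitors gated without cell cycle genes (orange); filled points passed adjusted p under 0.05. Rrm2 and 2810417H13Rik lie farthest to the right, and Ung is the filled point left of 0.

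All 4 nucleotide supply genes were higher in cycling Dlx-positive cells. Rrm2, the small subunit of ribonucleotide reductase that is made in S phase, lay at 2.64, 3.37, 3.06 and 3.05 counts per 10000 in cycling pallial cells of WT3, WT6, Het5 and Het9 and at 6.24, 7.82, 7.42 and 6.74 in cycling Dlx-positive cells. The 2 ranges were well apart, with a log2 difference of 1.19 (SE 0.06, adjusted p 5.14e-11). Rrm1, the large subunit, differed by 0.75 (SE 0.10, adjusted p 8.07e-06), from 0.929 to 1.40 in pallial to 1.87 to 2.07 in Dlx-positive libraries. Tyms, which makes dTMP, differed by 0.66 (adjusted p 2.45e-05). Dut, which clears dUTP, differed by 0.26 (adjusted p 0.0028), also without overlap. Among progenitors these 4 genes differed by 0.75 to 1.91, and all passed.

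Of the 12 licensing and helicase genes, 5 were higher in cycling Dlx-positive cells and 7 did not pass the test. Mcm5 (log2 difference 0.41, SE 0.14, adjusted p 0.0238) and Mcm7 (0.26, adjusted p 0.0384) passed with all 4 libraries. Mcm5 no longer passed without Het5 (adjusted p 0.172) or Het9 (0.122), nor Mcm7 without WT6 (0.116), Het5 (0.123) or Het9 (0.191), and in WT3 alone the differences were -0.08 and -0.01. Mcm2 differed by 0.05 (SE 0.11), Mcm3 by -0.09 (SE 0.11), Mcm4 by -0.04 (SE 0.13) and Mcm6 by 0.13 (SE 0.12). Differences between the subunits were not tested. Mcm2 lay at 1.35, 1.25, 1.20 and 0.940 counts per 10000 in cycling pallial cells and at 1.10, 1.32, 1.25 and 1.23 in cycling Dlx-positive cells, so the classes overlapped. Of the 4 genes for activation of the loaded helicase, 2 were higher, Cdc45 by 0.86 (SE 0.14, adjusted p 8.46e-05) and Gins1, a GINS subunit, by 0.75 (SE 0.14, adjusted p 0.000265). Cdc45 lay at 0.226 to 0.316 in pallial and 0.524 to 0.626 in Dlx-positive libraries. Gins2, another subunit of the same complex, differed by 0.06 (SE 0.12), and Mcm10 by 0.40 (SE 0.18, adjusted p 0.0882), with library values from -0.12 to 0.92. Gmnn, which encodes geminin, differed by 0.65 (adjusted p 1.19e-05), and Cdc6, a loader, by 0.37 (adjusted p 0.0945). Among progenitors 10 of the 12 were higher, Mcm2 (0.48, adjusted p 0.000496), Mcm4 (0.40) and Mcm6 (0.48) among them. The Mcm4 call was lost without WT3 (adjusted p 0.0516) or Het5 (0.0527). Mcm3 (0.21, adjusted p 0.0644) and Gins2 (0.18) did not pass.

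Of the 9 fork synthesis genes, 6 were higher in cycling Dlx-positive cells. Dscc1, part of an alternative clamp loader, differed by 0.87 (SE 0.17, adjusted p 0.000443), but from few molecules, with 56 and 206 UMIs in the 2 classes. Prim1, the catalytic subunit of primase, lay at 0.496 to 0.720 counts per 10000 in pallial and at 1.11 to 1.34 in Dlx-positive libraries, a log2 difference of 0.85 (SE 0.11, adjusted p 5.27e-06). Among the clamp loader subunits, Rfc3 differed by 0.83 (SE 0.10, adjusted p 3.36e-06), Rfc4 by 0.53 (adjusted p 0.000146) and Rfc2 by 0.18 (adjusted p 0.155). Pcna, the clamp, lay at 1.62, 1.94, 1.61 and 1.61 in pallial and at 2.46, 2.66, 2.73 and 2.63 in Dlx-positive cells, again with no overlap, and differed by 0.60 (SE 0.08, adjusted p 1.29e-05). Pcna-ps2, a pseudogene of Pcna, has its own row, so reads of Pcna may have been split between the 2 rows, and Tyms and Nasp also have pseudogenes. Pola1, a polymerase alpha subunit encoded on the X chromosome, differed by 0.45 (adjusted p 0.0213), which was 0.0837 without Het5 and 0.0806 without Het9. Fen1, which trims Okazaki fragments, differed by 0.25 (adjusted p 0.134) and Rpa2, which coats single strands, by 0.14 (adjusted p 0.268). All 9 were higher in the progenitor gate, by 0.30 to 1.28, though the Rfc2 call was lost without WT6 (adjusted p 0.0539).

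Chromatin and histone genes gave 3 of 5 higher in cycling Dlx-positive cells. Nasp, a histone H3-H4 chaperone, lay at 3.74 to 4.08 counts per 10000 in pallial and 5.76 to 6.60 in Dlx-positive libraries and differed by 0.66 (SE 0.06, adjusted p 1.64e-07). Slbp, which binds histone mRNA, differed by 0.65 (adjusted p 2.54e-06) and Uhrf1, which guides maintenance DNA methylation, by 0.31 (adjusted p 0.0174). The Uhrf1 call was lost without WT6 (adjusted p 0.0730) or Het5 (0.0974). Chaf1b, of the CAF-1 chaperone, differed by 0.33 (adjusted p 0.134). Hells, a chromatin remodeler, lay at 1.14 to 1.30 in pallial and 1.09 to 1.24 in Dlx-positive cells, with a log2 difference of -0.05 (SE 0.10). All 5 were higher in Dlx-positive progenitors, Hells by 0.33 (adjusted p 0.00487).

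Of the 6 checkpoint and repair genes, 5 were higher and 1 was lower in cycling Dlx-positive cells. 2810417H13Rik, also named Pclaf, encodes a small PCNA-binding protein. It lay at 6.27, 6.73, 6.75 and 5.03 counts per 10000 in cycling pallial cells and at 12.7, 13.2, 14.0 and 14.3 in cycling Dlx-positive cells, a log2 difference of 1.12 (SE 0.07, adjusted p 7.21e-10). Rad51ap1, a factor of repair by homologous recombination, differed by 0.96 (SE 0.14, adjusted p 2.28e-05), Clspn, which encodes the checkpoint mediator claspin, by 0.71 (adjusted p 4.15e-05), and Tipin, of the fork protection complex, by 0.58. Usp1, which removes ubiquitin from PCNA, differed by 0.28 (adjusted p 0.0166), a call lost without Het5 (adjusted p 0.0896) or Het9 (0.0686).

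Ung, the uracil-DNA glycosylase that removes uracil from DNA, was the exception. It lay at 0.575, 0.882, 0.831 and 0.852 counts per 10000 in cycling pallial cells and at 0.313, 0.446, 0.594 and 0.384 in cycling Dlx-positive cells. It was lower in Dlx-positive cells of 4 of 4 libraries, although the classes overlapped slightly across libraries (log2 difference -0.74, SE 0.13, adjusted p 0.000157). The call was lost with cells thinned to 3000 UMIs (-0.46, adjusted p 0.0889) and when pallial cells were restricted to those with an Eomes UMI (-0.41, adjusted p 0.172). Between progenitors Ung differed by -0.06 (SE 0.12, adjusted p 0.738). There its direction turned on which pallial cells were used. It was lower in Dlx-positive progenitors against pallial cells with 0 Eomes UMIs (-0.45, adjusted p 0.024) and higher against those with at least 1 (0.86, adjusted p 0.000255). Both restrictions by Eomes were added after seeing the data.

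The 3 G1/S regulators did not pass the test in cycling cells. Ccne1 differed by 0.06 (SE 0.16), Ccne2 by 0.14 (SE 0.17) and E2f1 by 0.18 (SE 0.11). Cyclin E genes were sparse, with 78 UMIs of Ccne1 in the 415 cycling pallial cells. All 3 were higher in Dlx-positive progenitors, by 0.42 to 0.48. The Ccne1 call there was lost without WT3 (adjusted p 0.165), Het5 (0.0734) or Het9 (0.101).

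Among 54 other replication genes listed alongside, 25 of 52 tested were higher in cycling Dlx-positive cells and 0 lower, beside 14.1% and 21.7% of all genes. Cdca7, which helps recruit Hells to DNA, differed by 1.61 (adjusted p 9.31e-12), E2f2 by 1.26 (adjusted p 3.9e-06) and Rnaseh2b, of ribonuclease H2, by 0.98 (adjusted p 3.79e-08). Between progenitors 39 of 50 were higher and 0 lower.

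With the cycling gate raised to 10 G2/M UMIs, a setting added after seeing the data, 17 of the 39 genes were called, 16 higher and 1 lower, with a median of 0.23, beside 30.6% of all genes called. Rrm2 (0.86), 2810417H13Rik (0.70), Rfc3 (0.73), Prim1 (0.63), Pcna (0.43) and Nasp (0.44) passed in this stricter gate. Ung was again lower (-1.14, adjusted p 3.06e-05), and Mcm2 (-0.24, adjusted p 0.163), Mcm3 (-0.33, adjusted p 0.0738) and E2f1 (-0.07, adjusted p 0.743) did not pass. Eomes marks intermediate progenitors. Against the 165 cycling pallial cells with an Eomes UMI 18 genes were called, all higher in Dlx-positive cells, beside 17.5% of all genes, and against the 250 without one 23 were called, 22 of them higher, beside 37.2%. Against pallial progenitors with an Eomes UMI 38 genes were higher and 0 lower (median 1.37, 35.8% of all genes called), and against those without one 22 were higher and 2, Ung and Gins2, lower (median 0.42, 43.3% of all genes called).

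To see how the genes were ordered along the cell cycle, progenitors of both lineages (gated without cell cycle genes) were split by their UMIs of the 24 G2/M genes, none of which is one of the 39. There were 395 cells with 0 G2/M UMIs, 313 with 1 to 2, 210 with 3 to 9 and 754 with 10 or more. Against cells with 0, those with 10 or more had 37 of the 39 genes higher and 0 lower, where 33.1% of 8031 genes were called in either direction and 14.5% higher (medians 1.20 and -0.07). The widest differences were those of 2810417H13Rik (4.55), Rrm2 (2.92), Rad51ap1 (2.38), Tyms (2.37), Clspn (2.36), Gmnn (2.21), Cdc45 (2.11), Dut (2.02), Rrm1 (1.74) and Rfc4 (1.69), each with an adjusted p under the threshold. E2f1 (0.39, adjusted p 0.0545) and Ung (-0.23) did not pass. Deeper cells can hold more G2/M UMIs, and median depth was 5453 UMIs at 0 and 7376 at 10 or more.

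The genes did not all follow the G2/M transcripts upward. By mean level, 19 of the 39 were highest in cells with 3 to 9 G2/M UMIs and 20 in cells with 10 or more. A comparison of these 2 bins was added after seeing this. In it 21 of the 39 genes differed, 12 lower and 9 higher in cells with 10 or more, against 14.1% of 7769 genes, 5.91% lower and 8.22% higher. The 12 lower genes were Ung, E2f1, Cdc6, Mcm2, Mcm3, Mcm4, Mcm5, Mcm6, Gins2, Hells, Rpa2 and Uhrf1, and the 9 higher genes were 2810417H13Rik, Rad51ap1, Rrm2, Cdc45, Tyms, Rrm1, Gmnn, Rfc4 and Usp1. Thus 7 of 12 licensing and helicase genes were lower, and 3 of 4 nucleotide supply genes were higher. Pcna (-0.09), Nasp, Slbp and Tipin were among the 18 that did not pass.

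**Figure D3:**
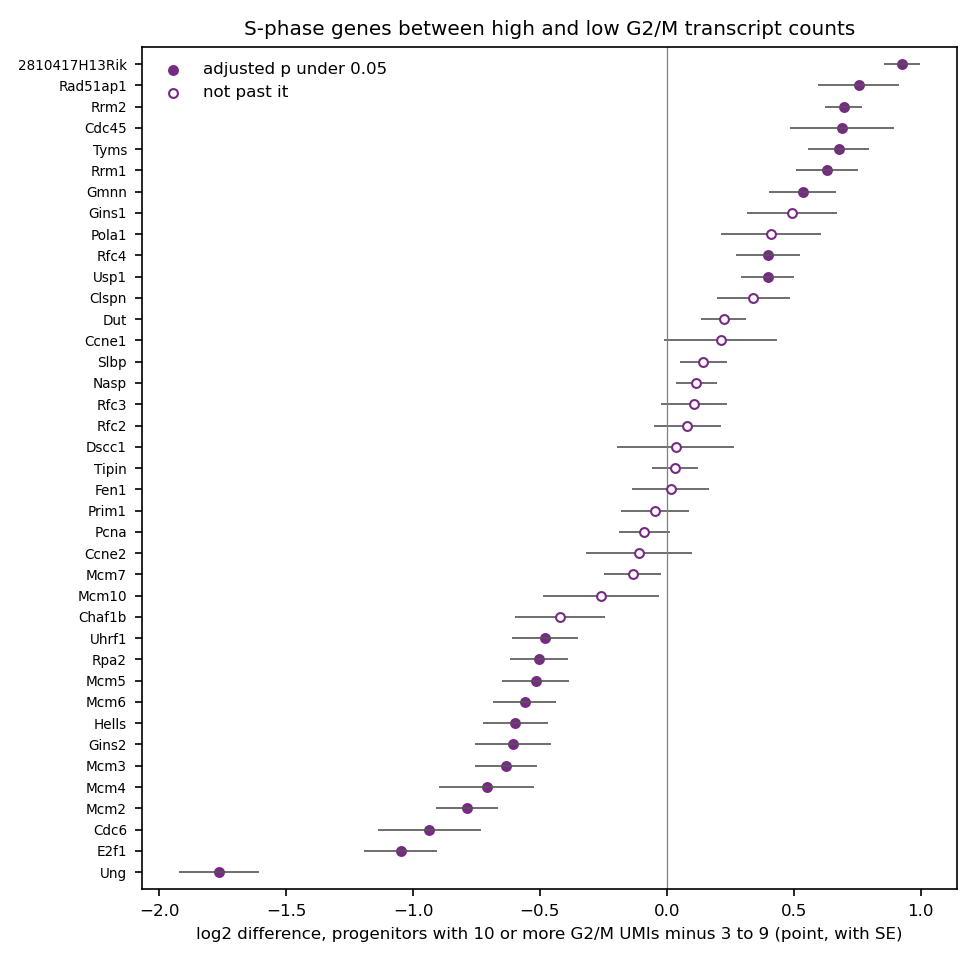
Difference in log2(mean counts per 10000 + 0.1) between progenitors with 10 or more G2/M UMIs and those with 3 to 9, with its SE, for each of the 39 genes; filled points passed adjusted p under 0.05. Ung (-1.76) and E2f1 (-1.05) lie at one end, and 2810417H13Rik (0.93) at the other.

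Ung showed the clearest fall. It lay at 1.01, 1.41, 1.83 and 1.47 counts per 10000 in cells with 3 to 9 G2/M UMIs of WT3, WT6, Het5 and Het9 and at 0.182, 0.482, 0.482 and 0.297 in cells with 10 or more (log2 difference -1.76, SE 0.16, adjusted p 6.44e-09). E2f1, an activator of G1/S transcription, lay at 0.986 to 1.59 and then at 0.497 to 0.631, a difference of -1.05 (SE 0.14, adjusted p 6.78e-06). Cdc6 differed by -0.94 (SE 0.20, adjusted p 0.0018), Mcm2 by -0.79 (SE 0.12, adjusted p 3.73e-05) and Mcm4 by -0.71 (SE 0.19, adjusted p 0.0102). In each of these but Mcm4, all 4 libraries moved down, and for Mcm4 3 of 4 did.

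On the other side, 2810417H13Rik lay at 5.91, 7.18, 5.74 and 7.75 in cells with 3 to 9 G2/M UMIs and at 12.45, 12.59, 12.97 and 12.44 in cells with 10 or more (0.93, SE 0.07, adjusted p 3.76e-10). Rrm2 rose by 0.70 (SE 0.07, adjusted p 9.83e-08), Rad51ap1 by 0.76 (SE 0.16), Tyms by 0.68 (SE 0.12) and Cdc45 by 0.69 (SE 0.20), each in 4 of 4 libraries. Of the other replication genes, 9 of 52 were higher, beside 8.22% of all genes. They were led by Ccna2 (2.68, adjusted p 9.12e-14), the S and G2 cyclin, Dbf4 (2.16, adjusted p 1.56e-09), which activates the CDC7 kinase, and Asf1b (1.29, adjusted p 6.07e-05), a histone chaperone. Of the same list 2 were lower, among them Pole4 (-0.49, adjusted p 0.011), a subunit of DNA polymerase epsilon, beside 5.91% of all genes.

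The bins differed in lineage, with 95 pallial and 115 Dlx-positive cells at 3 to 9 G2/M UMIs and 157 and 597 at 10 or more, so the genes were also read within each lineage, as a description. In Dlx-positive progenitors Ung averaged 1.61 counts per 10000 at 3 to 9 G2/M UMIs and 0.253 at 10 or more, E2f1 1.82 and 0.605, and Mcm2 2.51 and 1.05. In pallial progenitors Ung averaged 1.17 and 0.743 and E2f1 0.701 and 0.494, while Mcm2 averaged 1.28 and 1.26. Of the 12 genes called lower, the mean was lower at 10 or more G2/M UMIs for 12 in Dlx-positive but for 8 in pallial progenitors. The other 4 had a higher pallial mean, with Uhrf1 going from 0.921 to 1.51, Rpa2 from 1.18 to 1.52, Hells from 1.31 to 1.38 and Cdc6 from 0.190 to 0.194. For the 9 genes called higher, the mean was higher in both lineages. Rrm2 went from 5.76 to 7.26 in Dlx-positive and from 1.58 to 3.15 in pallial progenitors, and 2810417H13Rik from 10.1 to 14.1 and from 2.47 to 6.67. The lineages were also compared within bins. At 0 G2/M UMIs the 39 genes summed to 17.0 to 33.0 counts per 10000 in Dlx-positive and 13.4 to 17.9 in pallial libraries, which overlapped. In Dlx-positive cells the sum was 17.0 for WT3, 20.8 for WT6, 33.0 for Het5 and 27.0 for Het9, higher in Setd5+/- without overlap. In pallial cells it was 15.5, 17.9, 15.3 and 13.4 in the same order, lower in Setd5+/- without overlap. At 1 to 2 the 39 genes summed to 40.2 to 49.4 counts per 10000 in Dlx-positive and 13.6 to 21.5 in pallial libraries. At 3 to 9 these sums were 65.7 to 91.9 and 30.8 to 46.8. At 10 or more the sums were 66.6 to 80.1 and 45.9 to 60.7. Ung was above the pallial mean in Dlx-positive cells at 1 to 2 (1.32 against 0.368) and at 3 to 9 G2/M UMIs, and below it at 10 or more. The pallial bin of 3 to 9 held only 10 cells in WT3.

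**Figure D4:**
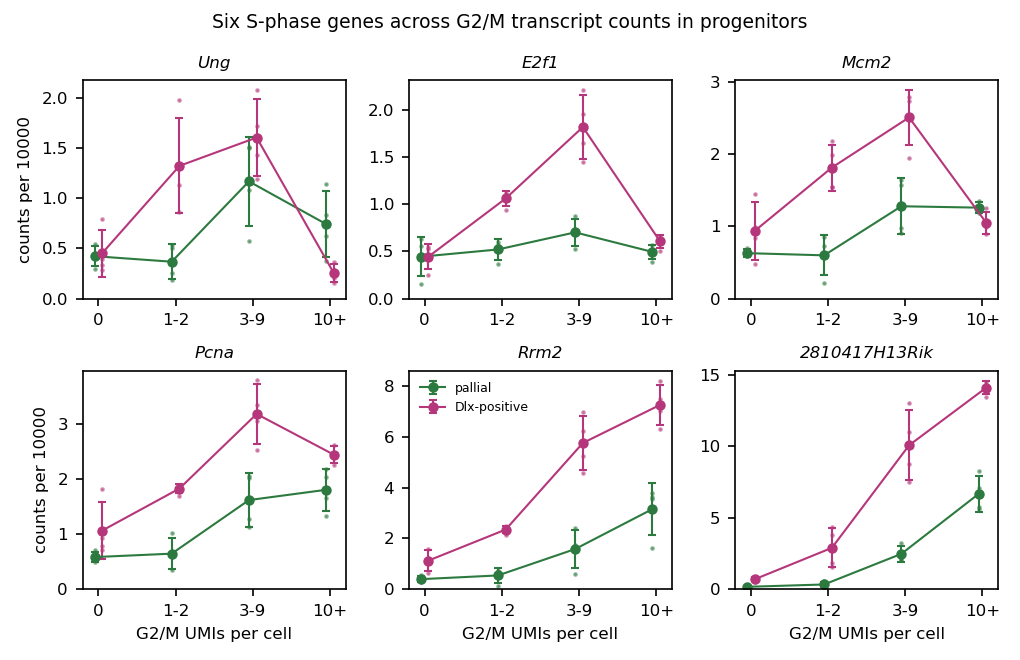
Counts per 10000 of 6 S-phase genes in pallial (green) and Dlx-positive (magenta) progenitors against the number of G2/M UMIs in the cell, as library values (small points) and the mean with SD of 4 libraries. In Dlx-positive cells Ung, E2f1, Mcm2 and Pcna peak at 3 to 9 G2/M UMIs, and Rrm2 and 2810417H13Rik are highest at 10 or more.

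Genes with a similar pattern were sought for Pcna, Mcm2 and Mcm4 to Mcm7 over the 24 library-by-class means of the 6 classes in the score plot, among 8074 genes (Pearson's r, a description over means that share libraries and depth). Paics, an enzyme of purine synthesis, was nearest to Pcna (r = 0.98) and Anp32b to Mcm2 (r = 0.98). For Mcm4 the nearest was Dtl (r = 0.95), which encodes a substrate receptor of the PCNA-dependent ubiquitin ligase, for Mcm5 Pkig (r = 0.96), for Mcm6 Anp32b (r = 0.94) and for Mcm7 Incenp (r = 0.96).

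The genotype comparison asks whether loss of 1 Setd5 copy changes the replication program. It was tested in 5 classes (all cells, both cycling classes and both progenitor classes) and called 0 of the S-phase genes in these. In all cells together 34 of the 39 genes passed the filter on low values (mean of at least 0.1 counts per 10000), and limma called 0 of them, against 0.086% of 8137 genes called in either direction, Setd5 among these. The number of members at an unadjusted p under 0.05 was 0 in all cells, 1 in cycling pallial, 2 in cycling Dlx-positive, 2 in pallial progenitor and 7 in Dlx-positive progenitor cells. Background shares at that limit were 4.34%, 3.54%, 4.29%, 4.26% and 5% of all genes. Shares called after adjustment over all genes were 0.0492%, 0.0804%, 0.0972% and 0.301% in the last 4 classes. With 2 libraries a group the p-values rest on the spread between these libraries.

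Differences were mostly positive in cycling Dlx-positive cells and Dlx-positive progenitors. The median log2 difference of the members, Setd5+/- minus Setd5+/+, was 0.00 in all cells, -0.01 in cycling pallial, 0.13 in cycling Dlx-positive, 0.13 in pallial progenitor and 0.15 in Dlx-positive progenitor cells, and the median of all genes lay between -0.01 and 0.00. Leaving out 1 library moved the median in all cells to -0.14 without Het5 and 0.14 without Het9, that in cycling pallial cells to -0.07 without WT3, -0.06 without Het5 and 0.04 without Het9, that in pallial progenitors to -0.08 without WT3, 0.04 without Het5 and 0.25 without WT6, that in cycling Dlx-positive cells to 0.05 without WT3 (23 of 39 genes positive) or without Het5 and 0.20 without WT6, and that in Dlx-positive progenitors to 0.09 without WT3 and 0.21 without WT6. In the Dlx-positive progenitors 31 of the 39 genes had a positive difference, beside 50.4% of all genes. The 7 radial glia genes moved with it, with sums of 4.42 and 5.99 in Setd5+/+ and 10.5 and 9.62 in Setd5+/- Dlx-positive progenitors, and of 4.24 and 5.07 against 5.11 and 5.86 in cycling Dlx-positive cells, without overlap in either. Their part in the difference was not tested. The score of Dlx-positive progenitors was 0.513 and 0.552 in Setd5+/+ and 0.612 and 0.557 in Setd5+/- libraries. The groups did not overlap, but WT6 and Het9 were nearly level. The score went the other way, also without overlap, in Dlx-positive neurons (mean 0.149 in Setd5+/+ and 0.107 in Setd5+/-). So it did in progenitors with 1 to 2 G2/M UMIs, both lineages together (0.350 and 0.310). Within each lineage the sums over the 39 genes overlapped between genotypes in that bin. It held 22 pallial and 29 Dlx-positive cells in WT3 and 55 and 63 in WT6. In Het5 it held 44 and 31 and in Het9 36 and 33. The part of this mix was not tested. With cells thinned to 3000 UMIs, the cycling pallial score was also lower in Setd5+/- without overlap (0.420 and 0.398). In progenitors with 0 G2/M UMIs, both lineages together, the score was higher in Setd5+/- without overlap (0.208 and 0.259). The lineages went opposite ways there. The sum over the 39 genes was higher in Setd5+/- in Dlx-positive cells and lower in pallial cells, each without overlap. Gene by gene, the Dlx-positive progenitor libraries did not overlap between genotypes in 20 of the 39 genes, beside 32% of all 7645 genes. Separation of 2 against 2 libraries was thus frequent among all genes. In all cells 2 of 34 did not overlap, beside 32% of all genes, in cycling pallial 14 of 39 beside 31.5%, in cycling Dlx-positive 15 of 39 beside 33.4% and in pallial progenitors 10 of 38 beside 32.9%.

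**Figure D5:**
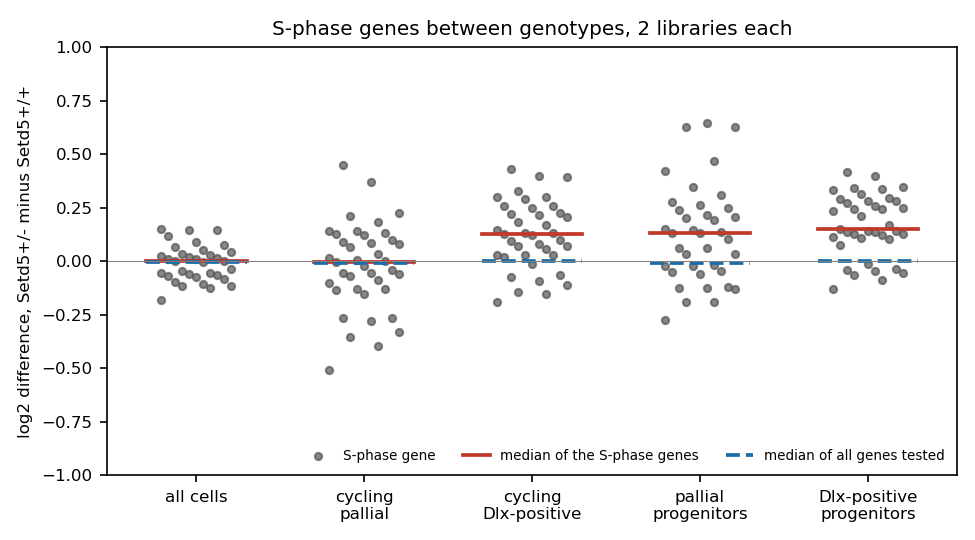
Difference in log2(mean counts per 10000 + 0.1) between Setd5+/- and Setd5+/+ libraries (2 each) for each S-phase gene (points) in 5 cell classes, with the median of these genes (red) and of all genes tested (blue, dashed). Members scatter around 0 in all cells and around 0.15 in Dlx-positive progenitors, and no point passed the test.

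The members with the lowest unadjusted p are given for each class. In Dlx-positive progenitors Fen1 lay at 0.613 and 0.737 counts per 10000 in Setd5+/+ and at 0.886 and 0.974 in Setd5+/- libraries. The groups did not overlap, and the log2 difference was 0.41 (95% interval 0.12 to 0.71, adjusted p 0.742). Mcm6 (0.35, 95% interval 0.05 to 0.64) and Slbp (0.28, 0.04 to 0.52) followed. In cycling Dlx-positive cells Fen1 led again (0.43, 95% interval 0.15 to 0.71, adjusted p 0.986), with Chaf1b (0.39) and Slbp (0.22). In cycling pallial cells the order was Mcm5 (-0.51, 95% interval -0.92 to -0.10, adjusted p 0.997), Tyms (-0.36) and Rad51ap1 (-0.40). In pallial progenitors Cdc45 (0.63), Rrm2 (0.65, 95% interval 0.02 to 1.27) and Cdc6 (0.63) led, all with an adjusted p of 0.972. In all cells Rfc3 (-0.18, 95% interval -0.43 to 0.07), Fen1 (0.14) and Gins2 (0.15) had the lowest unadjusted p. The intervals leave room for changes of such sizes in single genes.

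Whether the genotype difference was itself unlike in the 2 cycling lineages was tested as an interaction. It called 0 of the 39 genes, and 0.0126% of 7917 genes. At an unadjusted p under 0.05 there were 3 members, Mcm5 (0.72, 95% interval 0.26 to 1.18), Rad51ap1 (0.62, 0.10 to 1.14) and Mcm10 (0.73, 0.04 to 1.42), beside 3.46% of all genes, and their lowest adjusted p was 0.997. The genotype difference of Mcm5 was -0.51 in cycling pallial and 0.21 in cycling Dlx-positive cells, neither past the adjusted threshold. Pola1, the X-linked member, lay at 0.235 and 0.310 counts per 10000 in Setd5+/+ and 0.247 and 0.282 in Setd5+/- cycling pallial cells.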

How the data were processed

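Single cells of 4 libraries were captured with the 10x 3' v2 chemistry, and the authors counted UMIs with Cell Ranger 2.1 and used Seurat 2.3.0 on mm10, per the labels and the submitters' processing notes. Which annotation, strand setting and cell filters were used is not stated in the sources read. Values in the table the authors deposited are on a natural log scale, the ln of 1 plus counts scaled to 10000 per cell, for 16600 genes and 6562 cells. Taking the lowest value of a cell as 1 UMI gave whole UMIs for 100% of the values above 0 (tolerance 0.001). Libraries held 8205330 to 11742956 UMIs. The prefix of a cell's name gives its library and genotype, while the labelled replicate it belongs to is unknown, so n is the number of prefixes.

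The members and gene lists were chosen with earlier results of these data known. Mean counts per 10000 were taken per library and class (at least 20 cells), moved to log2(mean + 0.1), filtered at a mean of 0.1 over the libraries and classes of the comparison, and tested with limma 3.58.1 (trend, R 4.3.3) with Benjamini-Hochberg adjustment over all genes tested and a threshold of 0.05. Classes were compared with the library as a block, since both came from the same fetus. Fold changes on this scale understate those of low genes. The model was tested on simulated data. Scores were not tested. Per comparison, the 10 called members with the largest change are given in full (or the 3 of lowest unadjusted p), with up to 3 called genes of the other replication list, and further members are given by role. The genes nearest in pattern to Mcm3, and 1 gene of the other replication list, are not reported here. Doublets were called within libraries by Scrublet in scanpy 1.11.5 (37 cells, 0.564%), kept, and left out as an alternative. Thinning left out 526 cells under 3000 UMIs. Other alternatives changed the pseudocount, the filter, the gates, the library block and summed UMIs, and left out libraries or shared barcodes. Python 3.11.15 was used for the other steps.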

Additional observations from a re-analysis of the deposited data

How the results depend on the processing

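No called result changed sign, while Ung and Gins2, not called between progenitor classes, were called with either sign depending on the choice of pallial cells by Eomes. Under the alternatives run, between 17 and 26 of the 39 genes were called between cycling classes (19 to 26 with 1 library left out), 24 to 38 between progenitor classes (34 to 35), and 28 to 38 between progenitors with 10 or more and with 0 G2/M UMIs (34 to 37). Of the 24 genes called between cycling classes, 16 were called in all 17 alternatives other than that without the filter, which called 15 of these 16. The count between 10 or more and 3 to 9 G2/M UMIs was 21, beside 1098 of 7769 genes. It fell to 7 without the filter on low values, beside 312 of 16600, and was 14 to 20 with 1 library left out (14 without Het5, beside 651 of 7767). The cause was not tested. Leaving out 1 library ended the calls of Cdc45, Gins2, Gmnn, Mcm4, Mcm5, Rfc4, Uhrf1 and Usp1 there, with adjusted p values of 0.0551 to 0.215 (limma). Without the library block 23 genes were called between cycling classes, 35 between progenitor classes, 35 and 17 between the G2/M bins. In the main fits of these comparisons 35.8%, 47.5%, 33.1% and 14.1% of all genes were called. That share also moves with the setting, so the ranges describe how the calls moved and not the members against all genes. The genotype tests and the interaction called 0 of the genes in every alternative, with a lowest adjusted p (limma) of 0.549 with all 4 libraries, in thinned pallial progenitors, and of 0.0534 without WT6, where WT3 alone stands for Setd5+/+ and is assumed to vary like the other group. No paired analysis was possible between genotypes because the columns carry no replicate number of the labels.

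On the scale of counts per 10000 in place of log values, the score difference was 0.666 between cycling and 0.788 between progenitor classes, and Setd5+/- minus Setd5+/+ was 0.123 in cycling Dlx-positive, 0.0623 in pallial progenitor, 0.174 in Dlx-positive progenitor, -0.0324 in cycling pallial and -0.00876 in all cells. Among named genes, 736 values did not lose a call and 2 did under the alternatives chosen first. Under those added after seeing the data, 299 did not and 14 did. The values without a loss include genes of the genotype tests and the interaction, which had no call to lose. In the other comparisons only the called genes with the largest changes were counted. The calls of Mcm5, Mcm7, Pola1, Uhrf1 and Usp1 between cycling classes, lost when a library was left out, are therefore not in this tally.

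With 2 fetuses per genotype and sex confounded with genotype, genotype differences of the sizes within the intervals given cannot be told from 0 or from sex. Genes with few UMIs per class, such as Dscc1, Cdc6 and Ccne1, carry the widest errors.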
